A study of Mus musculus with 24 samples.

Results

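The genes described here are the innate pattern recognition genes of the mouse, measured by RNA-seq in 2 oral tissues of female mice with experimental periodontitis. They were taken by symbol: the toll-like receptors (Tlr), the C-type lectin domain genes (Clec), the NLRP proteins, Nod1, Nod2 and the NLRC proteins, the adaptor Myd88, the RNA sensors Ddx58 and Ifih1, and the inflammasome genes Aim2, Casp1 and Pycard. The rule gave 72 genes, of which 66 were among the 38321 gene IDs of the count tables. They comprise 12 Tlr, 29 Clec and 16 Nlrp genes, and 9 others. Cd14, Clec14a, Clec16a, Nlrc3, Nlrc4 and Nlrp4f were not analysed here.

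The study asked how ovariectomy and estradiol replacement act on tissues with periodontitis. Wild-type female C57BL/6J mice, 11 weeks old at the start, formed 3 treatment groups, and all of them had ligature-induced periodontitis, so no healthy tissue was compared. OVXE2 mice had both ovaries removed on day 0 and were given estradiol benzoate under the skin at 1 µg per day in 100 µL of corn oil from day 4. OVX mice had both ovaries removed and received vehicle, and Sham mice had a sham operation and received vehicle. A silk ligature was tied around the second maxillary molars on both sides on day 7, and tissue was taken on day 14. The dentoalveolar complex (DAC), which is the tooth-bearing bone with its teeth after soft tissue was cleaned off, and the gingiva around the maxillary molars gave 4 libraries each per treatment, 24 in all. The labels call the libraries biological replicates without saying if a mouse gave both tissues or if a library is a single animal.

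Pattern recognition receptors are the germline-encoded sensors by which cells detect microbes and tissue damage. Toll-like receptors read lipids, proteins and nucleic acids at the cell surface or in endosomes and signal mostly through Myd88 to NF-kappaB and interferon regulatory factors. C-type lectin receptors bind glycans or proteins on microbes and host cells, and many signal through tyrosine-based activating or inhibitory motifs. NOD-like receptors and Aim2 sense ligands in the cytosol, and several of them assemble inflammasomes with the adaptor Pycard (ASC) and the protease Casp1. In the periodontium, where a bacterial biofilm lies against the epithelium and bone, these receptors are known for driving neutrophil influx and osteoclast-mediated bone loss.

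Libraries held between 14771830 and 29248358 counted fragments. Levels are given as counts-per-million (CPM) after scaling by the trimmed mean of M values over all 24 libraries, and levels of different genes are set side by side only as CPM per kilobase of exon. Genes called changed had an adjusted p under 0.05 by edgeR's quasi-likelihood test with Benjamini-Hochberg adjustment over all genes tested. The marker genes followed the tissue labels. The 5 listed keratinocyte markers held 0.0871% to 0.847% of the counts in the DAC, the highest value being that of OVXE2 library 1, and 8.01% to 10.8% in gingiva. Osteoblast and osteocyte markers held 6.24% to 9.10% of the counts in the DAC and 0.193% to 0.600% in gingiva. Markers of other tissues set some DAC libraries apart: DAC OVX library 1 held 13.9% of its counts in nasal and salivary gland markers, against 0.273% to 2.49% in the other DAC libraries, and brain neuron markers were richest in DAC Sham libraries 2 and 4, OVX library 1 and OVXE2 library 2 (0.0167% to 0.0486%).

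The 5′ flanks of 6 members are shown because the differences between treatments (Clec5a, Clec2i) and some of the largest between tissues (Clec12a, Clec2g, Clec2e, Pycard) fell on these genes. The sequences are the RefSeq windows of build GRCm38.p6, from 250 bases before to 50 after the annotated start, written 5′ to 3′ on the gene's strand. Capitals mark matches to the motifs described after them.

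Clec5a (chr6:40585756-40586055, minus strand) had no match to any motif searched, and Clec2i (chr6:128887337-128887636, plus strand, shown for 1 of its 2 listed starts) had a C/EBP match that begins at position 17, counted from the start.
Clec5a: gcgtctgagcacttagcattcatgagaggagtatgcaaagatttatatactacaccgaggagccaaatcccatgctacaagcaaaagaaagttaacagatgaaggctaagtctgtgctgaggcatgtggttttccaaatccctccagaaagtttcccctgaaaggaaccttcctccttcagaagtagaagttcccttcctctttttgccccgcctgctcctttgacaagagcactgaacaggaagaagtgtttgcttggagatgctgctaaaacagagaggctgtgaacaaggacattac
Clec2i: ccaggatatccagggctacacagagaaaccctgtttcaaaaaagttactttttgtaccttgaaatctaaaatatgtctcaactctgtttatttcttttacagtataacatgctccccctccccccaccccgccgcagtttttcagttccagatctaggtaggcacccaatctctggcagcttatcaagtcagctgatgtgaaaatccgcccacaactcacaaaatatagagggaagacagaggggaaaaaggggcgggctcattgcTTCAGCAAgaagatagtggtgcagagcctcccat

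Clec12a (chr6:129349994-129350293, plus strand) lies in the same lectin cluster as Clec2i and had an AP-1 match at position -213 and a C/EBP match at position -140, counted from the start.
Clec12a: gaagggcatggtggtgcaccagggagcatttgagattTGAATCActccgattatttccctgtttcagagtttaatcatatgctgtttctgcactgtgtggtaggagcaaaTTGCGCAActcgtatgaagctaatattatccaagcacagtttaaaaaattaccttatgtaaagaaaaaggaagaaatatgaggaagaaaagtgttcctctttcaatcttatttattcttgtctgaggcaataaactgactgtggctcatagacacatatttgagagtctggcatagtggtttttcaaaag

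Clec2g (chr6:128934131-128934430, plus strand) and Clec2e (chr6:129100854-129101153, minus strand), the members of that cluster that were lower in the DAC than in gingiva, each had an AP-1 match, at positions -108 and -102.
Clec2g: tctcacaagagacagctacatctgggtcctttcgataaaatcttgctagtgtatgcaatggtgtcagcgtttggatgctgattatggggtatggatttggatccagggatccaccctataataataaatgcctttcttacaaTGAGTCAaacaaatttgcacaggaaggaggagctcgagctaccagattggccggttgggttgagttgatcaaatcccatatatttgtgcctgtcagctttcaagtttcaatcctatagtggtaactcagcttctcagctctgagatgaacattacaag
Clec2e: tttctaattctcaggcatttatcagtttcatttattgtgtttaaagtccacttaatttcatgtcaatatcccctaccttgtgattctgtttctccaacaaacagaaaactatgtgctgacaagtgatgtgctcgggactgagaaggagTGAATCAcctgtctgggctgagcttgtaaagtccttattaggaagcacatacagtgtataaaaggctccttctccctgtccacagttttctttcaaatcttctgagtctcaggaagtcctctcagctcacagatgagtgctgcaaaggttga

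Pycard (chr7:127993818-127994117, minus strand) had a C/EBP match at position -142 and a PU.1 match at position -44.
Pycard: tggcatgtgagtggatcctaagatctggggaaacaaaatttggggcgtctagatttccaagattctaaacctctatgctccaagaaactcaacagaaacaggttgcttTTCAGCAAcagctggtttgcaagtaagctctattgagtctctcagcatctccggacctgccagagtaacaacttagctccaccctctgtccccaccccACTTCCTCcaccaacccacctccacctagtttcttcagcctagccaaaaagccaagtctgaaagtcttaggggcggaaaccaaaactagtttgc

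Of the 66 members, 55 had such a window in the RefSeq table, and every window of 27025 genes was searched on both strands for the same letters. The AP-1 site TGANTCA stood in the windows of 11 members (20%), against 8.97% of all genes, and the C/EBP site TTGCNNAA in those of 15 members (27.3%), against 12.2%. The PU.1 site GAGGAAGT stood in 8 (14.5%), against 3.69%, and the interferon-stimulated response element core, GAAA and GAAA with 2 bases between them, in 9 (16.4%), against 3.99%, among them Ddx58, Ifih1 and Myd88. The NF-kappaB site, GGG and TTTCC with 2 bases between them, stood in 2, Tlr3 and Clec2l (3.64% against 1.90%). The palindromic estrogen response element, GGTCA and TGACC with 3 bases between them, stood in none of the 55 windows, against 0.0740% of all genes. At so low a share, its absence from 55 windows is uninformative. These are matches of letters in a short window, and neighbouring members of a gene cluster share ancestry, so they are not independent.

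The toll-like receptors were dominated by Tlr2 in the DAC and by Tlr2 and Tlr4 together in gingiva. Tlr2, the sensor of bacterial lipoproteins, had 15.3 ± 2.28 CPM per kilobase over the 12 DAC libraries (SD), with a range of 11.6 to 20.7 that no other toll-like receptor reached. Tlr13, a receptor for bacterial ribosomal RNA, followed at 5.58 ± 1.33 and Tlr4, the lipopolysaccharide receptor, at 5.42 ± 0.78 CPM per kilobase in the DAC, and their ranges overlapped. In gingiva Tlr2 had 4.69 ± 1.26 and Tlr4 4.67 ± 0.60 CPM per kilobase (SD, n = 12 each), with overlapping ranges, and both lay above the flagellin receptor Tlr5 at 1.75 ± 0.25. Tlr11 had the lowest level in both tissues, at 0.104 ± 0.056 in the DAC and 0.0791 ± 0.036 CPM per kilobase in gingiva. From Tlr3 down to Tlr12 in the DAC, and from Tlr5 downwards in gingiva, each receptor's range overlapped that of the next, so neighbours in the order were not separated. Receptors further apart in it could be: the DAC range of Tlr3 (2.64 to 3.61 CPM per kilobase) lay wholly above those of Tlr6 (1.75 to 2.57) and Tlr12, and the gingiva range of Tlr5 (1.38 to 2.13) lay wholly above those of Tlr6 (0.464 to 0.950) and Tlr11.

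**Figure D1:**
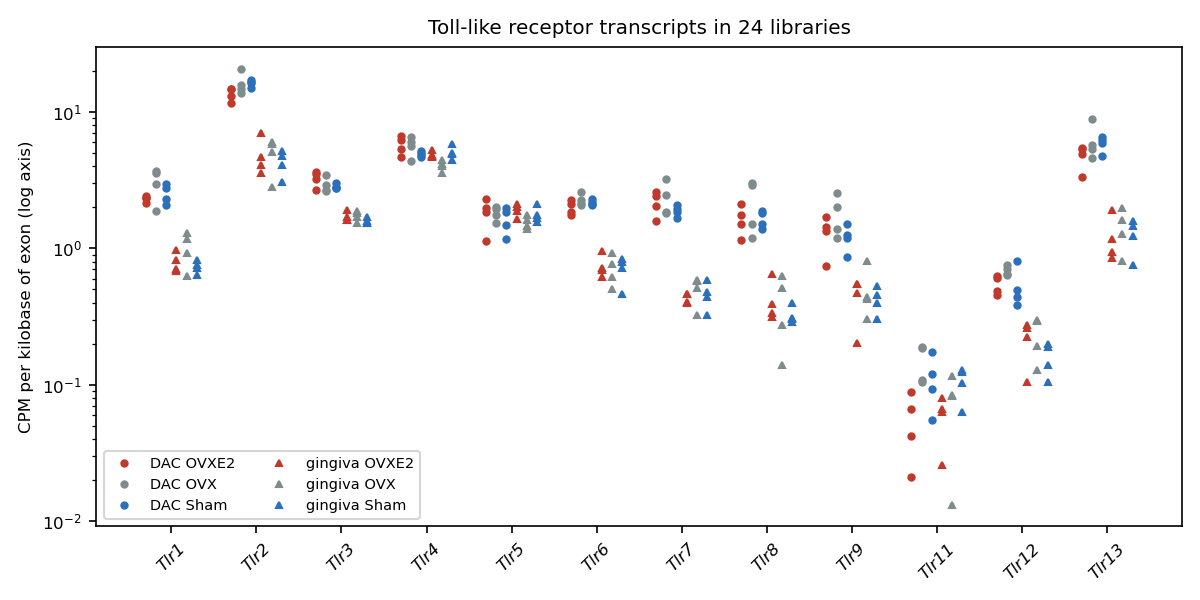
Level of each toll-like receptor in every library, as CPM per kilobase of exon on a log axis. Circles are DAC and triangles gingiva libraries, coloured by treatment with 4 libraries per group. Tlr2 stands above the other receptors in the DAC at 11.6 to 20.7 CPM per kilobase. The ranges of Tlr4, Tlr5, Tlr9 and Tlr11 overlap between the tissues.

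Across all members, the makeup of the summed level differed between the tissues. Summed per kilobase, the 3 core inflammasome genes Pycard, Casp1 and Aim2 took 5.20% ± 1.15 of the members' level in the DAC and 40.8% ± 2.46 in gingiva (SD, n = 12 each). The NLRP proteins took 1.31% ± 0.33 in the DAC and 12.6% ± 2.48 in gingiva. The dectin-2 group of C-type lectins, set here by symbol as the Clec4 genes, took 20.5% ± 2.25 in the DAC and 6.47% ± 2.25 in gingiva. The highest members in the DAC were Clec11a (139.8 CPM per kilobase) and Clec2d (65.3), followed by Myd88, Clec4d, Clec4n, Clec7a, Clec12a and Tlr2. Clec11a encodes osteolectin, a secreted growth factor of bone that carries a lectin domain and is not a pathogen receptor, and Clec2d is a ligand of inhibitory receptors on natural killer cells. They held 29.5% and 13.8% of the members' summed level in the DAC, and 3.26% and 8.81% in gingiva. The C-type lectin domain genes outside the dectin groups, Clec11a among them, took 31.8% ± 2.92 in the DAC and 6.52% ± 1.01 in gingiva. The share of Clec11a lowers that of every other family in the DAC. In gingiva the highest were Pycard (79.5 CPM per kilobase), Casp1 (71.9) and Nlrp10 (45.1), followed by Clec2d, Myd88, Clec11a, Clec3b and Clec2g.

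The tissue difference was tested gene by gene. In Sham mice 45 of the 50 members tested differed between the tissues, 36 higher and 9 lower in the DAC, against 75.1% of all 14209 genes tested, 39.7% of them higher and 35.4% lower. The median log2 difference of the 50 was 1.67, beside 0.07 over all genes. In these whole-tissue libraries, fewer cells of a type and less RNA per cell cannot be told apart. Of the 50, 7 passed the count filter through the DAC alone, Clec1b, Clec2i, Clec4b2, Clec4g, Nlrp1a, Nlrp6 and Tlr11. Their place among the members tested rested on their DAC counts, which favours genes of a higher level there. It did not require one: Tlr11 summed to 33 counts in the DAC and 31 in gingiva of Sham mice. Among the 43 that passed it in both tissues, 30 were higher and 9 lower in the DAC, with a median log2 difference of 1.504. In OVXE2 mice 44 members differed between the tissues, beside 72.1% of all genes, and in OVX mice 44, beside 72.4%. In all 3 treatments 35 members were higher and 7 lower in the DAC, 29 and 7 of them among the members that passed in both tissues. The share of all genes called alike in all 3 treatments was not computed, so these counts have no background beside them. In 34 members the 4 DAC libraries of Sham mice all lay above the 4 gingiva libraries, 28 of them among those 43, and in 7 all lay below, beside 36.6% and 34.3% of all genes.

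**Figure D2:**
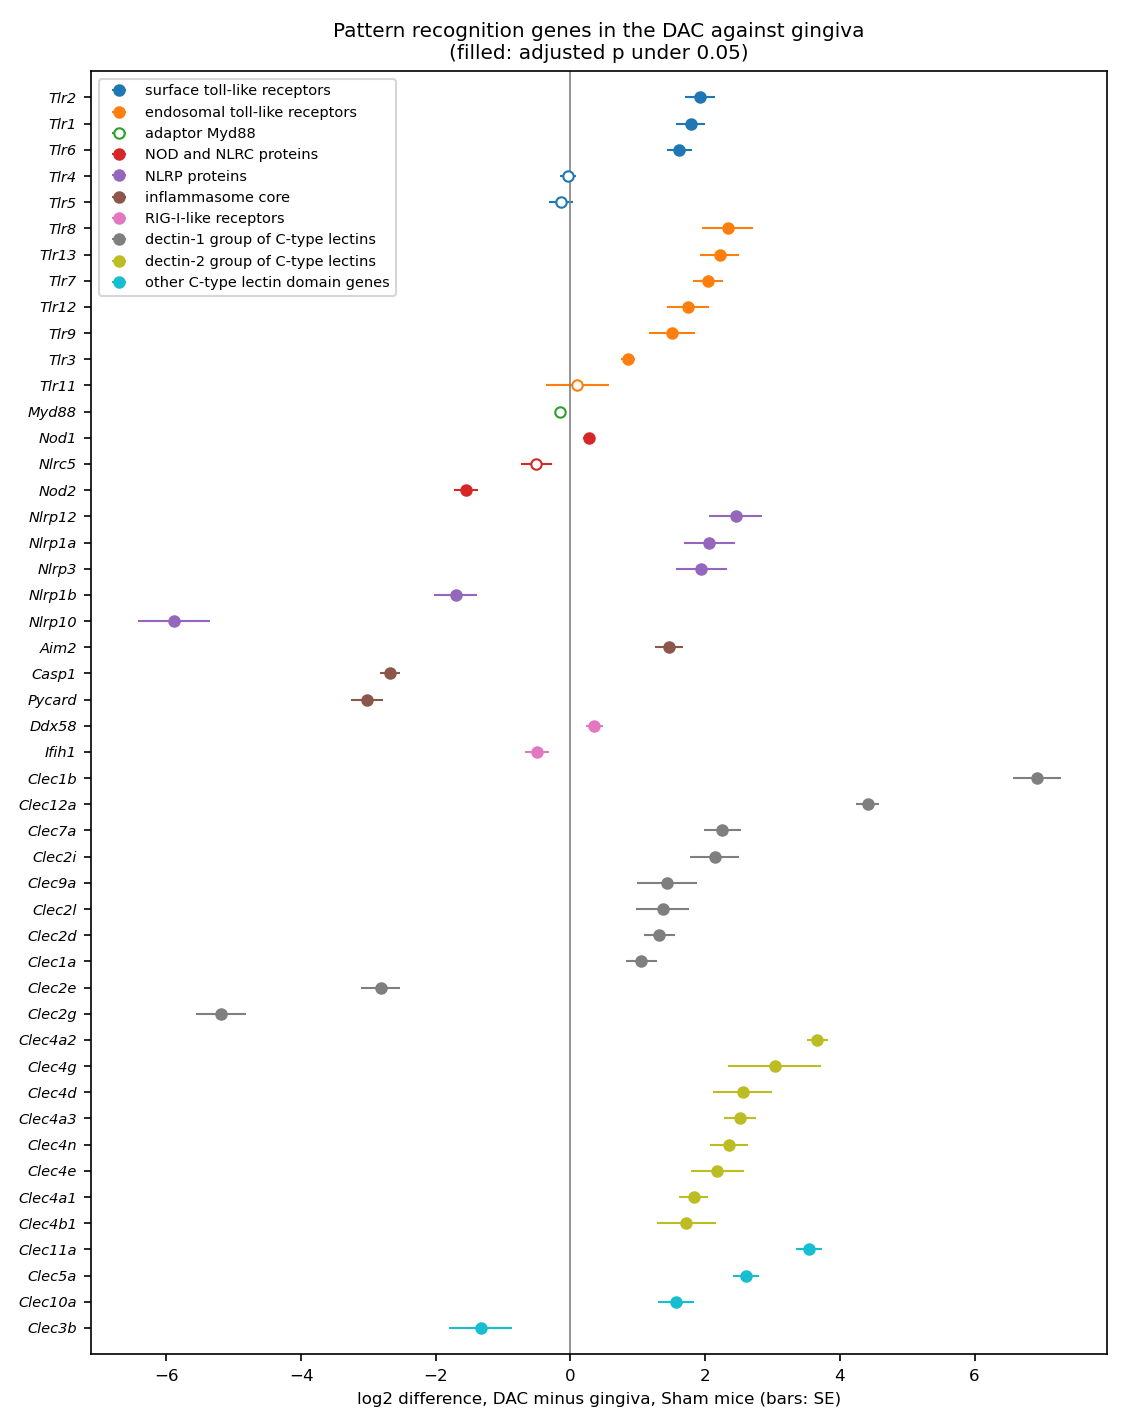
The log2 difference between DAC and gingiva in Sham mice for each member, grouped by family, with bars for the SE and filled points for an adjusted p under 0.05 (edgeR). Clec4b2 and Nlrp6, with 0 and 1 counts in gingiva of Sham mice, are left out. The dectin-2 group, set by symbol as the Clec4 genes, lies to the right of 0, and Pycard, Casp1, Nlrp10, Clec2g and Clec2e lie far to the left.

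Among the surface toll-like receptors, Tlr1, Tlr2 and Tlr6 were higher in the DAC and Tlr4 and Tlr5 did not pass the test. Tlr1 and Tlr6, which pair with Tlr2 on different lipoproteins, had log2 differences of 1.79 ± 0.21 and 1.61 ± 0.19, and Tlr5 had -0.14 ± 0.18. Tlr2 had 44.8, 51.2, 49.4 and 49.6 CPM in DAC libraries of Sham mice, against 12.3, 15.7, 9.20 and 14.3 CPM in gingiva. The groups did not overlap, and the log2 difference was 1.92 ± 0.22 (SE; edgeR adjusted p = 1.03e-07). Tlr4 had 26.7, 28.6, 25.9 and 27.9 CPM in the DAC and 24.5, 28.0, 32.3 and 27.3 CPM in gingiva of Sham mice, a log2 difference of -0.04 ± 0.12 (adjusted p = 0.766, edgeR). It passed the test in OVX mice only, where it was 0.47 ± 0.12 higher in the DAC on the log2 scale (edgeR adjusted p = 0.00110), and the change of this difference with treatment did not pass its own test (interaction of OVX against Sham, 0.51 ± 0.16, edgeR adjusted p = 0.575). Tlr1 and Tlr6 are paralogs that lie side by side on chromosome 5 and share stretches of sequence. Reads that align to several places are not in these counts, so their levels are less certain than those of Tlr2.

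Of the 7 endosomal receptors, which read nucleic acids or, for Tlr11 and Tlr12, protozoan profilin, 6 were higher in the DAC, and Tlr11, which passed the count filter there alone, did not pass the test. Tlr13 had 28.1, 25.6, 20.4 and 26.9 CPM in the DAC of Sham mice and 6.24, 5.28, 3.23 and 6.83 CPM in gingiva, a log2 difference of 2.22 ± 0.29. Tlr8 and Tlr7, receptors for single-stranded RNA that lie side by side on the X chromosome, differed by 2.33 and 2.04 and Tlr12 by 1.74 on the log2 scale. Tlr9, the receptor for bacterial DNA, also passed the test (edgeR adjusted p = 0.000513). Tlr3, the receptor for double-stranded RNA and a gene of many non-immune cells, differed least among the receptors that passed, by 0.85 ± 0.10 (edgeR adjusted p = 2.21e-07). Its 4 libraries lay between 14.5 and 15.8 CPM in the DAC and between 7.93 and 8.89 CPM in gingiva of Sham mice. The shared adaptor Myd88 averaged 73.6 ± 5.50 CPM in the DAC and 81.9 ± 5.50 CPM in gingiva of Sham mice and did not pass the test there (log2 difference -0.15 ± 0.07, edgeR adjusted p = 0.0670). In OVXE2 and OVX mice Myd88 was lower in the DAC, by a log2 difference of -0.24 and -0.21.

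The inflammasome genes split between the tissues. Pycard had 42.5, 25.8, 37.8 and 45.8 CPM in the DAC of Sham mice, against 304, 282, 335 and 311 CPM in gingiva, a log2 difference of -3.02 ± 0.24 (edgeR adjusted p = 2.77e-10). Casp1 had 19.7, 14.3, 16.8 and 20.1 CPM in the DAC, against 109, 115, 115 and 115 CPM in gingiva, a log2 difference of -2.68 ± 0.15. Both adaptor and protease were thus lower in every DAC library than in any gingiva library. Nlrp10, an NLR without the leucine-rich repeats of its relatives and a gene of epidermis, had 5.28, 3.28, 2.99 and 3.91 CPM in the DAC and 220, 205, 283 and 219 CPM in gingiva (log2 difference -5.89 ± 0.54).

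Nlrp3, Aim2, Nlrp12, Nlrp6 and Nlrp1a went the other way, and Nlrp1b did not. Nlrp3, which responds to ion fluxes and crystals, had 11.7, 19.6, 9.60 and 12.2 CPM in the DAC of Sham mice and 3.95, 3.90, 1.78 and 4.04 CPM in gingiva, a log2 difference of 1.94 ± 0.38 (edgeR adjusted p = 8.91e-05). Aim2, the sensor of cytosolic DNA, was higher in the DAC by 1.46 ± 0.21 and Nlrp12, an NLR of myeloid cells, by 2.45 ± 0.39 on the log2 scale. Nlrp6 summed to 32 counts in the DAC of Sham mice and 1 count in gingiva. The neighbouring paralogs Nlrp1a and Nlrp1b on chromosome 11 differed in opposite directions, Nlrp1a by 2.06 ± 0.38 and Nlrp1b by -1.71 ± 0.31. They are close copies with few counts, so reads may be split between them, and Nlrp1a, like Nlrp6, passed the count filter through the DAC alone.

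Keratinocyte markers moved with the genes that were lower in the DAC: all 5 tested were lower there, with a median log2 difference of -6.57. Their part in the difference was not tested. Nod2, the receptor for muramyl dipeptide, was likewise lower in the DAC, with 9.81, 9.06, 13.2 and 11.2 CPM against 32.8, 33.7, 24.8 and 35.3 CPM in gingiva of Sham mice (log2 difference -1.55 ± 0.18, edgeR adjusted p = 8.51e-08). Nod1, its relative for diaminopimelic acid peptides, was 0.27 ± 0.08 higher in the DAC on the log2 scale (edgeR adjusted p = 0.00612), a call lost when no low counts were filtered out and among the libraries with a higher share of reads on the other strand (edgeR adjusted p of up to 0.0898). The RNA sensor Ddx58 (RIG-I) was 0.35 ± 0.13 higher and Ifih1 (MDA5) had a log2 difference of -0.50 ± 0.18, each past the test in Sham mice. The call of Ddx58 was lost without gingiva Sham library 1 (edgeR adjusted p = 0.0504). That of Ifih1 was lost without gingiva Sham library 3 or 4, with the groups compared alone and among the libraries with a higher share of reads on the other strand (edgeR adjusted p of up to 0.156), and Ifih1 did not pass the test in OVXE2 or OVX mice.

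**Figure D3:**
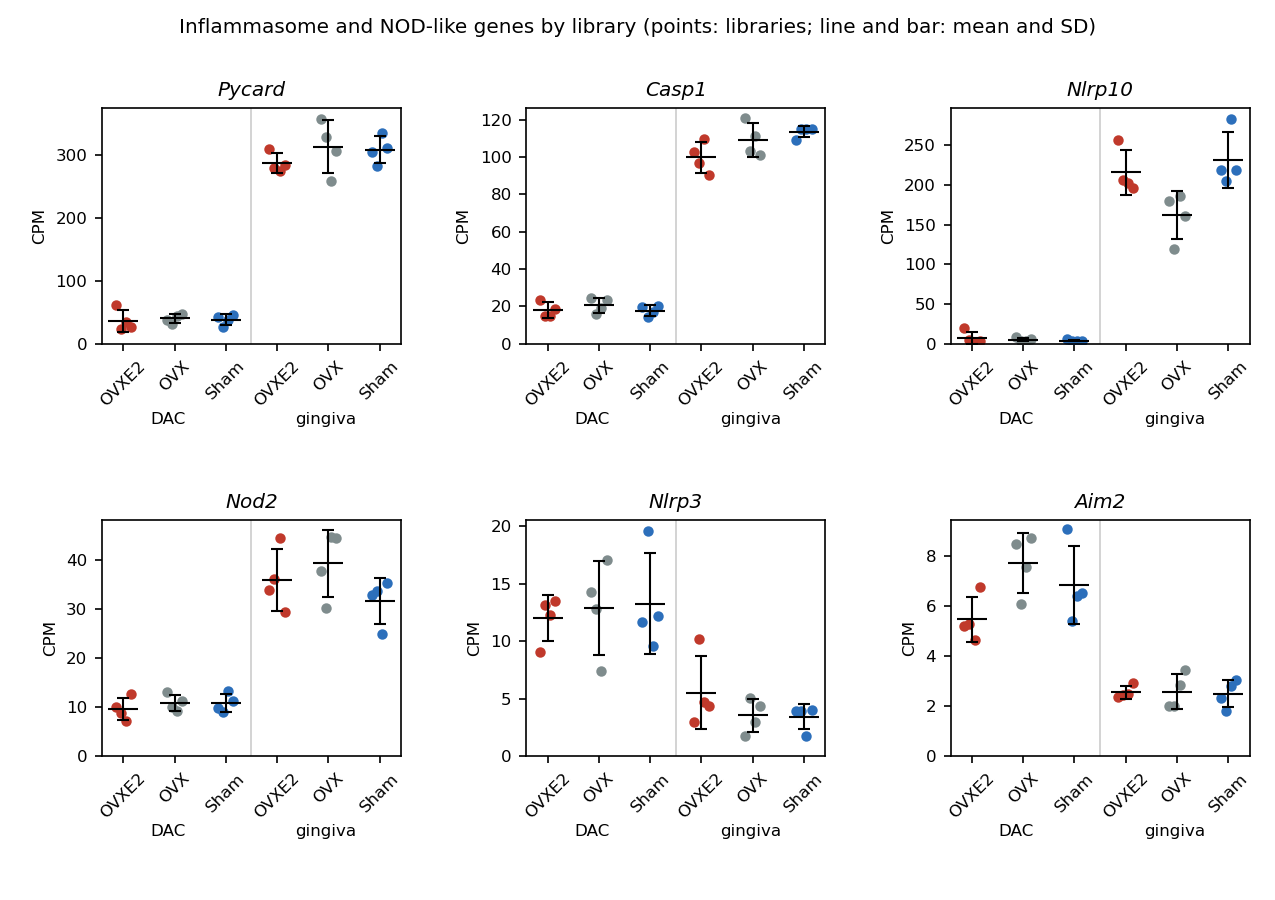
CPM of Pycard, Casp1, Nlrp10, Nod2, Nlrp3 and Aim2 in each library, with the mean and SD of 4 libraries per group and DAC groups left of gingiva groups. Pycard, Casp1, Nlrp10 and Nod2 are lower in every DAC library than in any gingiva library, and within a tissue the treatments overlap for most genes.

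The 7 dectin-2 group lectins that passed the count filter in both tissues were each higher in the DAC in every treatment, with a median log2 difference of 2.35 in Sham mice. The group was set by symbol as the Clec4 genes, and Clec4g lies on chromosome 8, apart from the run described next. Clec4b2 and Clec4g, the other tested genes with a Clec4 symbol, passed the filter through the DAC alone and were also called higher there. Of these 9, 8 lie in a run of genes on chromosome 6 between 122921848 and 123289870. Clec4a2 (DCIR), an inhibitory receptor of myeloid cells, had 41.6, 44.8, 41.0 and 43.5 CPM in the DAC of Sham mice and 3.04, 3.31, 3.40 and 3.68 CPM in gingiva (log2 difference 3.67 ± 0.16, edgeR adjusted p = 6.20e-14). Clec4e (Mincle), a receptor for mycobacterial glycolipids, had 24.3, 42.7, 26.9 and 33.3 CPM in the DAC and 7.94, 9.56, 3.01 and 7.39 CPM in gingiva, a log2 difference of 2.18 ± 0.39. Clec4d, its partner, and Clec4n (dectin-2), a receptor for fungal mannan, differed by 2.56 ± 0.43 and 2.35 ± 0.28, and Clec4a3 by 2.52 ± 0.24. Clec4b2 summed to 55 counts in the DAC of Sham mice and 0 in gingiva, which makes it at least 19-fold higher in the DAC when 3 counts over the gingiva group are taken as the floor. The Clec4a and Clec4b genes are close paralogs, and how reads were shared among them is uncertain.

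The dectin-1 group was set by symbol as Clec1a, Clec1b, Clec7a, Clec9a and the Clec12 and Clec2 genes, so the name covers more than relatives of dectin-1. The group lies mostly in the natural killer gene complex, a run of 11 members on chromosome 6 between 128662385 and 129472779. Of its 7 members that passed the count filter in both tissues, 5 were higher and 2 lower in the DAC, so neighbours of a single cluster differed in opposite directions. Clec1b and Clec2i, called higher in the DAC, passed the filter there alone. Clec12a, an inhibitory receptor of granulocytes and monocytes, had 101, 93.8, 86.5 and 91.9 CPM in the DAC of Sham mice and 3.99, 4.61, 4.18 and 4.65 CPM in gingiva (log2 difference 4.42 ± 0.17, edgeR adjusted p = 2.04e-14). Clec1b (CLEC-2), the podoplanin receptor of platelets and megakaryocytes, summed to 889 counts in the DAC and 7 counts in gingiva of Sham mice, a log2 difference of 6.93 ± 0.35. Clec7a (dectin-1), the receptor for fungal beta-glucan, had 48.8, 36.7, 42.4 and 54.8 CPM in the DAC and 10.1, 8.77, 6.64 and 12.6 CPM in gingiva, a log2 difference of 2.25 ± 0.28.

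Clec2g and Clec2e, whose windows are printed above, were the exceptions of the cluster. Their AP-1 matches do not set them apart, because Clec12a, higher in the DAC, had an AP-1 match too. Clec2g had 0.684, 0.425, 0.498 and 1.10 CPM in the DAC of Sham mice, against 22.9, 27.2, 28.1 and 23.4 CPM in gingiva (log2 difference -5.19 ± 0.37, edgeR adjusted p = 5.83e-11). Clec2e had 0.608, 0.973, 1.59 and 1.19 CPM in the DAC and 9.36, 7.38, 7.58 and 6.42 CPM in gingiva, a log2 difference of -2.82 ± 0.29. Clec2d, which lies between them and Clec12a, was 1.32 ± 0.23 higher in the DAC. Among the lectin genes outside these clusters, Clec11a had 424, 362, 460 and 466 CPM in the DAC of Sham mice and 33.7, 40.3, 37.4 and 35.0 CPM in gingiva (log2 difference 3.55 ± 0.20). Clec5a was 2.61 ± 0.19 and Clec10a, a galactose lectin of macrophages, 1.57 ± 0.27 higher in the DAC. Clec3b (tetranectin) had a log2 difference of -1.33 ± 0.47, with overlapping groups.

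Marker lists of myeloid and marrow cells also moved between the tissues. All 10 mature neutrophil and all 11 immature neutrophil markers tested were higher in the DAC of Sham mice, as were 9 of 10 monocyte and macrophage, 10 of 10 B cell and 9 of 9 osteoclast markers. Immature neutrophil markers held 0.247% to 0.528% of counts in the DAC and 0.0125% to 0.0219% in gingiva of Sham mice, and none of the 11 was at 0 in any DAC library. Their part in the lectin and toll-like receptor differences was not tested.

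The listed partners of these receptors also differed between the tissues in both directions, and their counts stand beside the 75.1% of all genes that were called in Sham mice, 39.7% higher and 35.4% lower. In Sham mice 8 of 12 listed signalling genes of C-type lectin receptors were higher in the DAC and 4 were lower. Tyrobp (DAP12), the adaptor that couples Clec5a, differed by 3.54 ± 0.28, Fcer1g by 3.01 ± 0.21 and Card9 by 1.94 ± 0.21 on the log2 scale. Of 20 adaptors and kinases of toll-like receptor signalling, 7 were higher and 11 lower, Btk by 3.50 ± 0.23 and Tab3 by -1.89 ± 0.17. Of 12 inflammasome partners, 8 were higher and 4 lower: the substrate Il1b differed by 2.09 ± 0.40, whereas Il18, a cytokine of epithelia, differed by -3.50 ± 0.27. Of 18 genes of cytosolic nucleic acid sensing, 3 were higher and 8 lower, a smaller share called than over all genes. Of 23 NF-kappaB target genes 15 were higher and 1, the receptor antagonist Il1rn, was lower, again a smaller share called than over all genes but a larger share higher.

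Estradiol replacement was tested within each tissue. In the DAC, 2 of 50 members differed between OVXE2 and OVX mice, both lower with estradiol, beside 2.13% of all 13617 genes, 1.45% of them lower. The members' count was thus near that background. Both were C-type lectin domain genes, Clec5a and Clec2i, whose windows are printed above. Over the 50 members the median log2 change was -0.19, beside 0.02 over all genes, and 42 of 50 estimates lay below 0, beside 44.9% of all genes. At an unadjusted p under 0.05 there were 12 of 50, all lower, beside 10.03% of all genes in either direction. The OVXE2 libraries lay wholly below the OVX libraries in 4 members, beside 3.33% of all genes.

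Clec5a (MDL-1), an activating receptor of monocytes, neutrophils and osteoclast precursors, had 11.9, 15.1, 15.4 and 15.7 CPM in the DAC of OVXE2 mice, against 29.1, 25.0, 21.8 and 28.8 CPM in OVX mice and 22.3, 27.0, 22.5 and 20.7 CPM in Sham mice. Every OVXE2 library lay below every OVX and Sham library, and OVX and Sham libraries overlapped. The log2 change was -0.86 ± 0.12 against OVX (edgeR adjusted p = 0.00389) and -0.71 ± 0.12 against Sham (edgeR adjusted p = 0.0229), where it was the only 1 of 50 members past the test, beside 1.05% of all genes. These comparisons share the OVXE2 libraries. The call against OVX held when any single library was left out, including DAC OVX library 1 with its gland transcripts (-0.81, adjusted p = 0.0139, edgeR), but not among the libraries with a higher share of reads on the other strand (adjusted p = 0.154, edgeR) or without the 4 DAC libraries richest in brain neuron markers (adjusted p = 0.0570, edgeR). Clec12a had a log2 change of -0.33 ± 0.11 against Sham (edgeR adjusted p = 0.304). The call of Clec5a against Sham was lost without any of 6 single libraries, at an edgeR adjusted p of up to 0.0683.

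Clec2i, an osteoclast inhibitory lectin-related protein and ligand of NKR-P1 receptors, had 0.901, 0.690, 0.827 and 1.03 CPM in the DAC of OVXE2 mice, against 2.45, 2.03, 2.32 and 2.31 CPM in OVX mice and 2.13, 1.46, 0.997 and 1.14 CPM in Sham mice. It was a low transcript, with 95 counts over the 4 OVXE2 libraries, 247 over the OVX and 128 over the Sham libraries. The OVXE2 libraries lay below all OVX libraries and overlapped the Sham libraries. The log2 change was -1.40 ± 0.25 against OVX (edgeR adjusted p = 0.0144) and -0.77 ± 0.26 against Sham (edgeR adjusted p = 0.305). The call against OVX was lost without DAC OVXE2 library 1 (-1.41, edgeR adjusted p = 0.0503), among the libraries with a higher share of reads on the other strand (-1.53, edgeR adjusted p = 0.199) and without the 4 DAC libraries richest in brain neuron markers (-1.28, edgeR adjusted p = 0.171).

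**Figure D4:**
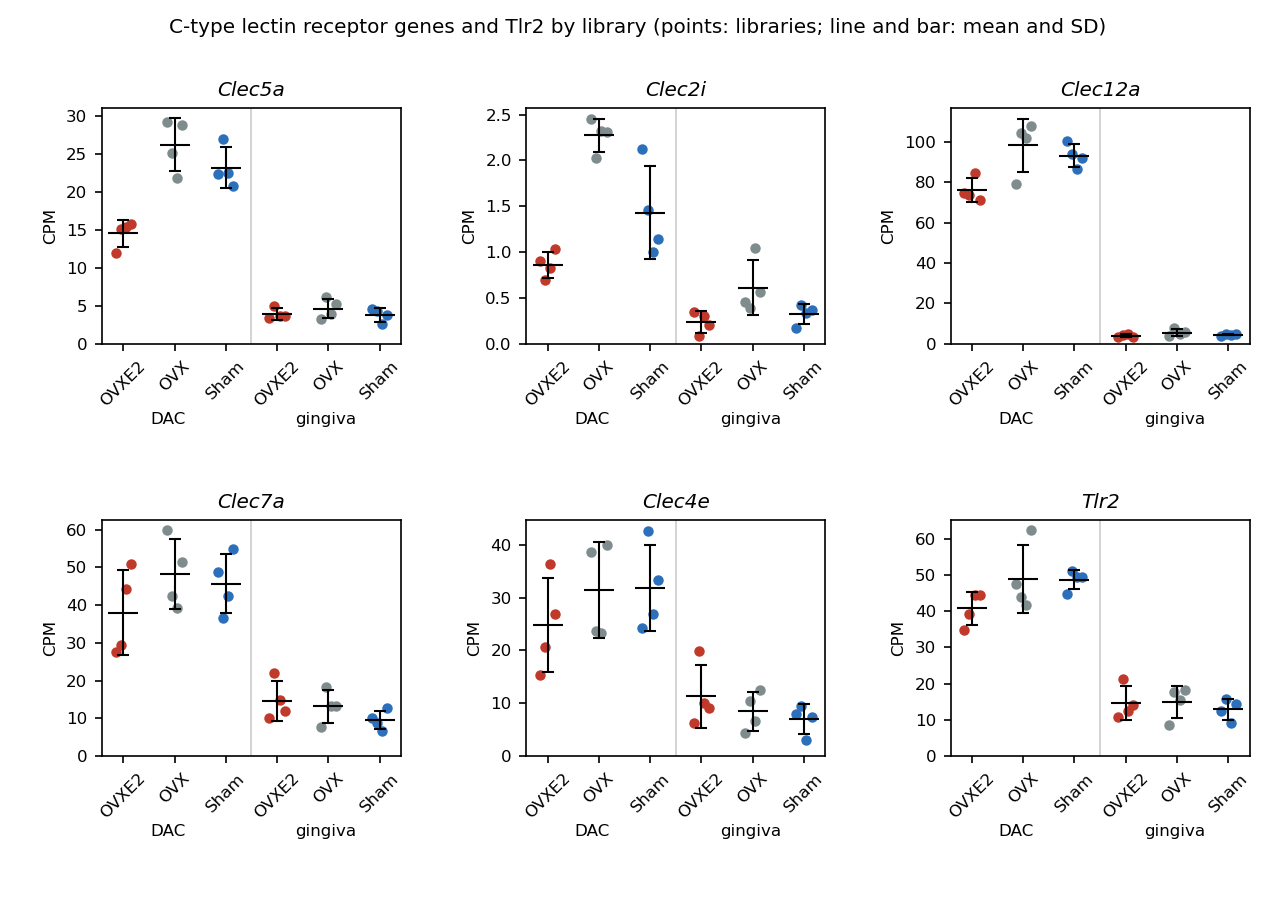
CPM of Clec5a, Clec2i, Clec12a, Clec7a, Clec4e and Tlr2 in each library, with the mean and SD of 4 libraries per group and DAC groups left of gingiva groups. The 4 DAC OVXE2 libraries lie at 11.9 to 15.7 CPM for Clec5a, below all other DAC libraries, whereas Clec7a, Clec4e and Tlr2 overlap between OVXE2 and OVX.

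Marrow and lymphoid markers moved with these genes in the DAC. Between OVXE2 and OVX mice 9 of 11 immature neutrophil, 9 of 10 B cell, 4 of 11 T and natural killer cell, 4 of 7 mast cell and basophil and 3 of 8 conventional dendritic cell markers were lower, with no call higher in these lists. Immature neutrophil markers held 0.146% to 0.204% of counts in OVXE2, 0.351% to 0.506% in OVX and 0.247% to 0.528% in Sham libraries. B cell markers held 0.00588% to 0.00901% in OVXE2, 0.0253% to 0.0352% in OVX and 0.0139% to 0.0202% in Sham libraries. No listed immature neutrophil marker was at 0 in any DAC library. Of 10 mature neutrophil and 9 osteoclast markers none was called, and of 10 monocyte and macrophage markers 1 was lower. Some shares went the other way. Osteoclast markers held 1.04% to 1.18% of counts in OVXE2, 0.582% to 0.963% in OVX and 0.916% to 1.12% in Sham libraries. Endothelium markers held 0.125% to 0.140%, 0.0859% to 0.110% and 0.105% to 0.114% in the same order. The part of these cell types in the changes of Clec5a and Clec2i was not tested.

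The remaining DAC members did not pass the test between OVXE2 and OVX. Clec12a came nearest, with 74.5, 73.7, 84.5 and 71.0 CPM in OVXE2 and 79.0, 104, 102 and 108 CPM in OVX libraries (log2 change -0.38 ± 0.11, edgeR adjusted p = 0.138). The lowest OVX value was that of the library rich in gland transcripts, and without it the change was -0.48 (edgeR adjusted p = 0.0213). Aim2, Clec4a1 and Clec4a3 had log2 changes of -0.51 ± 0.19, -0.53 ± 0.18 and -0.47 ± 0.19. Tlr11 had 19 counts over the OVXE2 and 53 over the OVX libraries and a log2 change of -1.43 ± 0.47 (edgeR adjusted p = 0.217).

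Receptors and adaptors of the main sensing pathways had estimates near 0 or below it in the DAC between OVXE2 and OVX. The log2 change was -0.27 ± 0.13 for Tlr2, 0.02 ± 0.12 for Tlr4, -0.46 ± 0.29 for Tlr9 and -0.10 ± 0.26 for Nlrp3. It was -0.05 ± 0.10 for Myd88, -0.04 ± 0.11 for Nod1 and -0.19 ± 0.17 for Nod2. Among the nucleic acid sensors it was 0.15 ± 0.10 for Tlr3, -0.36 ± 0.21 for Tlr13, -0.02 ± 0.11 for Ddx58 and -0.02 ± 0.15 for Ifih1. Pycard and Casp1 had -0.15 ± 0.29 and -0.20 ± 0.18, and Clec7a and Clec4e -0.35 ± 0.22 and -0.34 ± 0.29. None of these passed the test, which does not show that they were alike.

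In the same DAC comparison, genes acting with the receptors were called in a few places, beside the 1.45% of all genes that were lower. Of 12 C-type lectin signalling genes 2 were lower, the phosphatase Ptpn6 (SHP-1) by a log2 change of -0.56 ± 0.09 and Plcg2 by -0.48 ± 0.10. Ptpn6 averaged 65.2 ± 2.28 CPM in OVXE2, 95.5 ± 8.69 in OVX and 89.3 ± 10.1 in Sham libraries (SD, n = 4 each). Of 20 toll-like receptor signalling genes 2 were lower, Irf8, a transcription factor of myeloid and B cells, by -0.81 ± 0.14, and Btk by -0.57 ± 0.12. Of 22 NF-kappaB targets 2 were lower, Ccl5 by -2.03 ± 0.39 and Cxcl10 by -2.60 ± 0.59. In gingiva, where edgeR called no gene, Ccl5 averaged 0.98 ± 0.25 CPM in OVXE2 and 2.05 ± 0.65 CPM in OVX libraries (SD). Cxcl10 averaged 4.52 ± 1.78 and 17.8 ± 4.77 CPM there. No call was made among 6 toll-like receptor cofactors, 12 inflammasome partners and 18 nucleic acid sensing genes. In the last list 17 of the 18 estimates lay below 0, beside 44.9% of all genes.

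Among 22 other lectins and pattern receptors 1 was higher and 5 lower with estradiol. Mgl2, the galactose lectin paralog of Clec10a on macrophages and dendritic cells, averaged 19.8 ± 0.98 CPM in OVXE2, 8.98 ± 1.40 in OVX and 8.13 ± 0.75 in Sham libraries of the DAC (SD, n = 4 each). Its log2 change was 1.13 ± 0.12 against OVX (edgeR adjusted p = 0.000594), whereas Clec10a had a log2 change of 0.25 ± 0.20 that did not pass the test (edgeR adjusted p = 0.869). Fcnb, a ficolin of marrow granulocytes and also on the immature neutrophil list, changed by -2.38 ± 0.30. Cd209a, a lectin of monocyte-derived dendritic cells, changed by -1.82 ± 0.30, Pglyrp1, a peptidoglycan-binding protein of neutrophil granules, by -0.74 ± 0.12, Olr1 by -1.61 ± 0.34 and Cd209g by -1.22 ± 0.26. In gingiva, where edgeR called no gene, Mgl2 averaged 7.89 ± 1.90 CPM in OVXE2 and 3.43 ± 0.94 CPM in OVX libraries (SD). Cd209a averaged 1.30 ± 0.26 and 3.25 ± 1.01 CPM there, and Olr1 0.465 ± 0.337 and 0.717 ± 0.252 CPM. Pglyrp1 and Cd209g had higher means in OVXE2 than in OVX gingiva, and Fcnb was near 0. Cd209g was a low transcript, at 0.193 ± 0.136 CPM in OVXE2 and 0.129 ± 0.111 CPM in OVX gingiva, with overlapping libraries (SD). In the DAC it averaged 0.311 ± 0.058 and 0.726 ± 0.130 CPM in the same order.

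Ovariectomy alone gave no call among the members in either tissue. In the DAC, 0 of 50 members passed the test between OVX and Sham mice, beside 0% of all genes by edgeR, and 2 of 50 had an unadjusted p under 0.05, beside 3.21% of all genes. DESeq2 and limma-voom called 0 members as well. Nlrp1b had a log2 change of 1.14 ± 0.39 with 2.61, 1.07, 1.94 and 2.15 CPM in OVX and 1.22, 0.304, 1.04 and 0.834 CPM in Sham libraries. Clec2i had 0.64 ± 0.25 and Nlrc5, a regulator of MHC class I genes, 0.59 ± 0.28. All 3 had an edgeR adjusted p of 0.874, and in each the groups overlapped.

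In gingiva, 0 of 43 members passed the test in OVX against Sham, OVXE2 against OVX and OVXE2 against Sham, beside 0% of 12680 genes in each by edgeR, and DESeq2 and limma-voom also called 0 members. At an unadjusted p under 0.05 there were 7 of 43 members in OVX against Sham, beside 12.1% of all genes, 10 in OVXE2 against OVX, beside 13.9%, and 1 in OVXE2 against Sham, beside 7.41%. Nlrp10 had 257, 206, 203 and 197 CPM in OVXE2, 180, 119, 186 and 161 CPM in OVX and 220, 205, 283 and 219 CPM in Sham gingiva. The OVX libraries lay below all others, with log2 changes of -0.52 ± 0.14 in OVX against Sham (edgeR adjusted p = 0.376) and 0.41 ± 0.14 in OVXE2 against OVX (edgeR adjusted p = 0.304).

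Tlr4 had 26.6, 29.3, 25.9 and 27.0 CPM in OVXE2, 19.98, 22.2, 23.1 and 24.9 CPM in OVX and 24.5, 28.0, 32.3 and 27.3 CPM in Sham gingiva. Its OVX values lay below all OVXE2 values and overlapped the Sham values at 24.5 and 24.9 CPM, and the log2 changes were -0.31 ± 0.09 in OVX against Sham and 0.26 ± 0.09 in OVXE2 against OVX. Clec4a2 and Clec2d had estimates of the other sign, 0.55 ± 0.18 and 0.35 ± 0.10 in OVX against Sham and -0.60 ± 0.18 and -0.23 ± 0.10 in OVXE2 against OVX. These pairs share the OVX libraries. Between OVXE2 and Sham, Casp1 had a log2 change of -0.19 ± 0.07, Clec7a of 0.61 ± 0.30 and Clec11a of -0.28 ± 0.17, none past the test (edgeR adjusted p between 0.635 and 0.755).

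**Figure D5:**
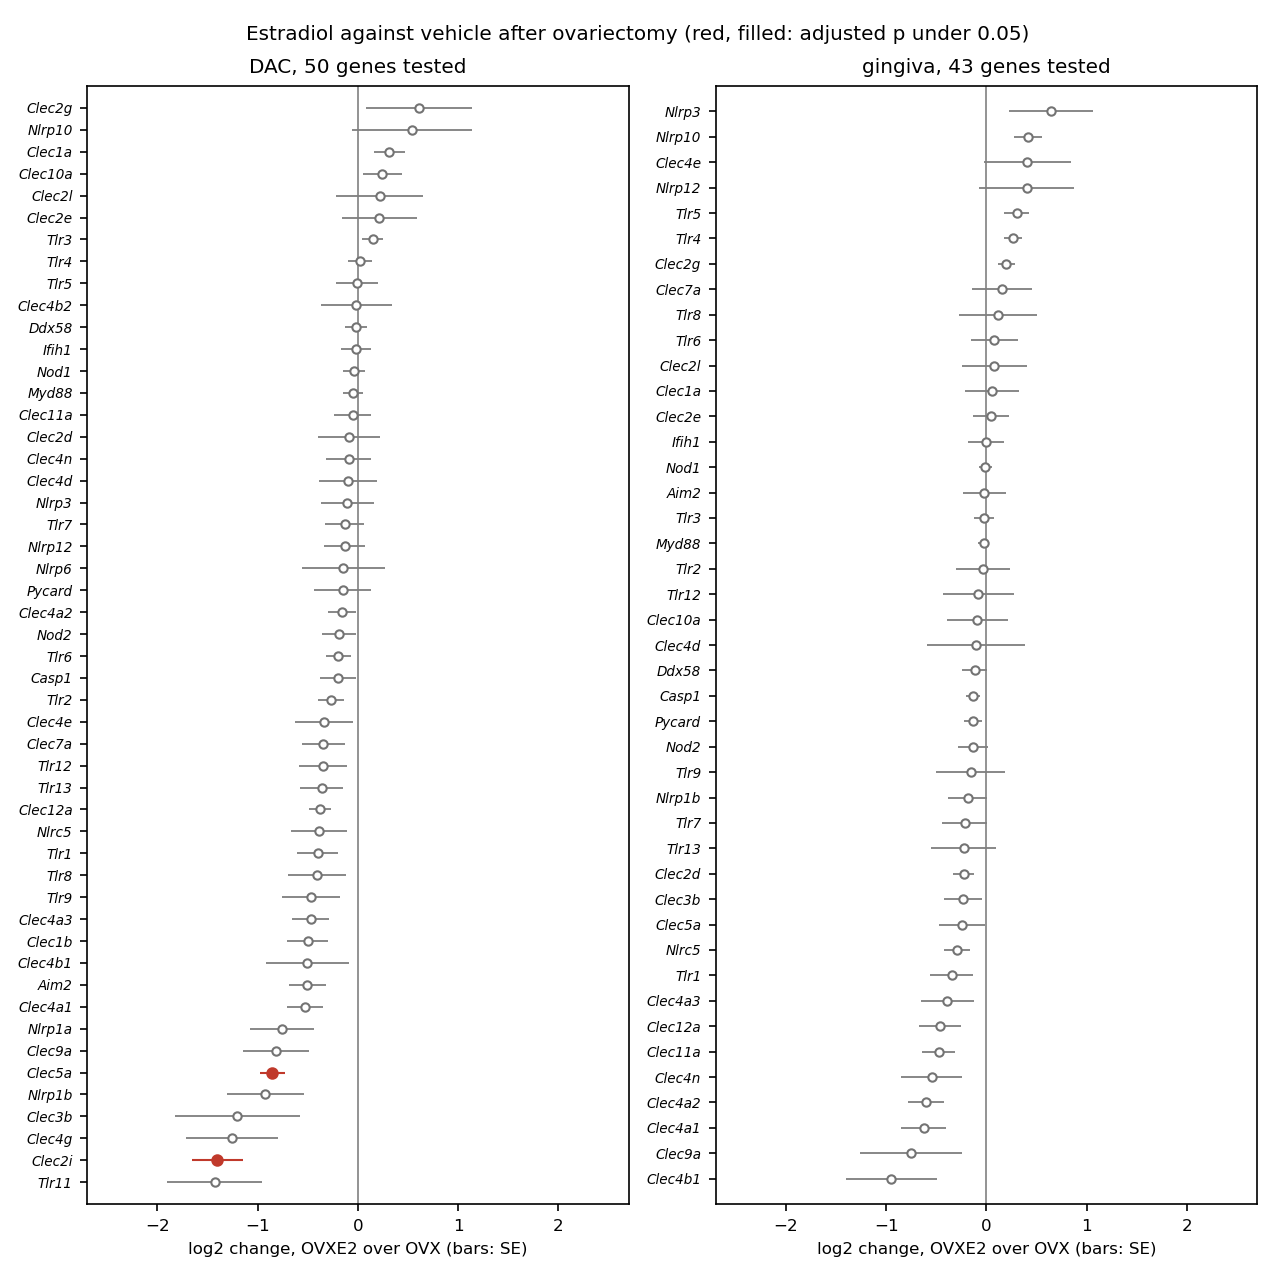
The log2 change between OVXE2 and OVX mice for the members tested in the DAC and in gingiva, with bars for the SE. Clec5a at -0.86 and Clec2i at -1.40 in the DAC, filled in red, are the members with an adjusted p under 0.05 (edgeR), and no member of gingiva passed.

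Whether estradiol acted differently on the members in the 2 tissues was tested as an interaction over all 24 libraries. For OVXE2 against OVX 0 of 50 members passed, beside 0.19% of all 14209 genes, and 1 of 50 had an unadjusted p under 0.05, beside 8.81% of genes, with 0 calls by DESeq2 and limma-voom. That member was Clec5a, whose change in the DAC differed from its change in gingiva by -0.61 ± 0.26 on the log2 scale (edgeR adjusted p = 0.526). In gingiva Clec5a had 3.31, 5.02, 3.68 and 3.58 CPM in OVXE2 and 3.28, 6.11, 3.85 and 5.20 CPM in OVX libraries, which overlapped. For OVXE2 against Sham 0 passed, beside 0.0633% of genes, with 2 at an unadjusted p under 0.05, beside 7.81%. For OVX against Sham 0 passed, beside 0% of genes, with 3 at an unadjusted p under 0.05, beside 8.53%. DESeq2 and limma-voom called 0 members in these as well. An effect in the DAC alone is therefore not shown.

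At the low end, 16 members were not tested in either tissue. Of these, 6 had no count in any of the 24 libraries, all of them Nlrp4 and Nlrp9 genes known from oocytes. The others were Clec4a4, Clec12b, Clec3a, Clec18a, Clec2h, Clec4f, Nlrp2, Nlrp5, Nlrp4c and Nlrp14, with 2 to 85 counts over all libraries. Clec7a is annotated as a polymorphic pseudogene in GENCODE and as protein-coding in RefSeq and was kept. Clec2f and Nlrp4g, also protein-coding in RefSeq, are transcribed unprocessed pseudogenes in GENCODE and were left out, so the rule followed GENCODE for them and RefSeq for Clec7a.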

How the data were processed

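RNA was taken from the dentoalveolar complex and gingiva. Per the labels' protocols, RNA with an integrity number over 7.0 was made into poly(A) libraries with a VAHTS kit and sequenced as paired ends on an AVITI instrument. The submitters' processing notes name fastp, STAR, DESeq2 and the build GRCm38 (mm10). Versions and annotation release were not given in the sources used here. Raw gene counts per library, in STAR's per-gene layout with a column per strand, are the deposited values. The column opposite to the first read's strand was used, because it held most assigned fragments, and the other strand held 3.38% to 9.03%. Reads aligned to several places (6.40% to 13.5%), to no feature (19.8% to 32.2%), to several features (0.872% to 1.19%) or unmapped (0.495% to 1.04%) stayed out of library sizes and tests. Total gene counts ran from 14771830 to 29248358 in the DAC and from 18598422 to 26001342 in gingiva.

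Gene IDs were named with GENCODE M21. Low counts were filtered with edgeR's filterByExpr, libraries were scaled by the trimmed mean of M values, and a robust quasi-likelihood model was fitted (R 4.3.3, edgeR 4.0.16). Treatments were compared in a fit per tissue (12 libraries, 13617 genes in the DAC and 12680 in gingiva), and tissues and interactions in a fit of all 24 libraries (14209 genes). P-values were adjusted over all genes of a fit by the Benjamini-Hochberg method. The SE of a log2 change is its size divided by the square root of F. P-values measure the spread between libraries, which may in part be technical. DESeq2 1.42.0, limma-voom (limma 3.58.1), other scaling, no filter, both strands, a strand covariate, a replicate block and leaving out each library were tried as alternatives. The test was checked on simulated data. Members and lists were chosen with earlier results of these data known. Members named were those past a treatment or interaction test, the 3 of smallest p per treatment comparison, up to 10 with the largest rise and 10 with the largest fall between tissues in Sham mice, the 8 of highest level per tissue, a fixed set of main receptors and adaptors, and up to 4 called genes per pathway list; other names were chosen after their values were seen. The 6 genes of these families that GENCODE annotates as unprocessed pseudogenes were left out, of which 2, Clec2f and Nlrp4g, are protein-coding in RefSeq.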

Additional observations from a re-analysis of the deposited data

Results flagged for a closer look

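In 22 members the 132 groups of 4 libraries were searched for a highest or lowest library far from the rest, by Dixon's test of its gap to the nearest library. This flagged 7 values, and chance flags about 1 in 20 groups. In DAC OVXE2 library 1, Nlrp10 stood at 19.1 CPM, against 2.03 to 4.57 CPM in the other 3 libraries of its group, and Clec2g at 2.22 CPM, against 0.703 to 0.944 CPM. Keratinocyte markers held 0.847% of the counts of that library, against at most 0.385% in the other DAC libraries, and their part in these values was not tested.

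In gingiva OVXE2 library 1 Nlrp10 stood at 257 CPM, against 197 to 206 CPM in the others. In gingiva OVXE2 library 4 Clec2g stood at 21.7 CPM, against 24.7 to 25.2 CPM. In gingiva Sham library 1 Casp1 stood at 109 CPM, against 115 CPM in each of the others. In gingiva Sham library 3 Nlrp3 stood at 1.78 CPM, against 3.90 to 4.04 CPM, and Clec1b at 0.0558 CPM, against 0.0808 to 0.0839 CPM. The Clec1b values rest on 7 counts over the 4 libraries.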

How the results depend on the processing

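Of the 45 members that differed between DAC and gingiva of Sham mice, 36 passed the test with the same sign in all 34 alternatives. Clec4b2, Clec4g and Nlrp6 passed in the 33 that tested them (they fell to the count filter with the groups compared alone), and Nlrp10 in the 33 that gave it an adjusted p (DESeq2 gave none). The exceptions were Clec2l, Clec3b, Ddx58, Ifih1 and Nod1, and no called member changed sign. Over the alternatives 40 to 46 members passed in Sham, 42 to 46 in OVX and 41 to 45 in OVXE2 mice. In OVXE2 against OVX DAC, 2 members passed, 1 to 3 when a library was left out, 1 without OVXE2 library 1, and 0 in both alternatives chosen after seeing the data: among libraries with a higher other-strand share (Clec5a -0.85, edgeR adjusted p = 0.154; Clec2i -1.53, adjusted p = 0.199) and without the 4 DAC libraries richest in brain neuron markers (-0.82, adjusted p = 0.0570, and -1.28, adjusted p = 0.171). Both leave fewer libraries. In OVXE2 against Sham DAC, the 1 call became 0 in those alternatives, with the groups compared alone (edgeR adjusted p = 0.0722) and with the other-strand share as a covariate (0.0704), and 0 to 1 when a library was left out. It was lost without Sham libraries 1, 2 and 3 and OVXE2 libraries 1, 2 and 4; the cause was not tested.

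With the replicate number as a block, Clec5a in OVXE2 against Sham DAC lost its call (edgeR adjusted p = 0.0746, 0 members past the test), and 2 members still passed against OVX. Within a tissue, libraries of the same number did not deviate together (correlations of -0.37 to 0.30 in the DAC and -0.55 to 0.30 in gingiva). Across the tissues, correlations ran from -0.34 to 0.26 for the same number and from -0.44 to 0.37 for different numbers. So few and spread correlations cannot show whether a mouse gave both tissues. Over all genes, the 290 calls of OVXE2 against OVX in the DAC were 594 by DESeq2, 189 with the groups compared alone, 176 to 290 when a library was left out, 39 among libraries of higher other-strand share and 122 without the brain-marker libraries. The 143 calls against Sham were 333, 64, 61 to 164, 16 and 37 in the same order, and 62 with the strand covariate. DESeq2 called 98 genes in gingiva OVXE2 against OVX, where edgeR called 0. The libraries of lower other-strand share were too few to fit alone.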

Other observations

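Among the genes of these families left out as pseudogenes in GENCODE, Clec2f had 93 counts over the DAC and 521 over the gingiva libraries, and Nlrp1c-ps 71 and 362. Members of the same families went both ways: Clec2g, Clec2e and Nlrp1b were lower in the DAC of Sham mice, and Clec2d, Clec2i and Nlrp1a were higher. Nlrp5-ps had 278 counts over the DAC and 87 over the gingiva libraries. Clec2j, Nlrp4d and Nlrp4g had 0 counts in all 24 libraries.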
